A study of Mus musculus with 16 samples.

Results

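The response of Ts1Rhr keratinocytes to the phorbol ester TPA was measured on 8 of the 16 arrays of the study, as 4 arrays of treated cells (Ts-TPA) and 4 of untreated cells (Ts-NT). Ts1Rhr mice carry an extra copy of an interval of mouse chromosome 16 that corresponds to part of human chromosome 21, and are used as a model of Down syndrome. The keratinocytes came from pups on postnatal day 1 (P1) of the FVBN strain, each line from a single pup, and both groups carried the trisomy. Ts-TPA cells received 0.2 μM TPA for 12 h and Ts-NT cells received no treatment. A treated and an untreated array that share a replicate number form a pair, here called a culture and numbered 1 to 4. The 4 WT-TPA and 4 WT-NT arrays, from keratinocytes of wild-type P1 pups given the same treatment or none, are used only to set the response of Ts cells beside that of WT cells. The question was which genes rose or fell with TPA in the trisomic cells.

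Of 25697 probes on the array, 7069 were kept, namely those that 4 or more of the 8 Ts arrays detected at a p-value of 0.01 or below. They include 6649 probes that carry a gene symbol, which stand for 5293 genes. Of all probes, 5086 were detected on all 8 Ts arrays and 15911 on none. Signals are given on a log2-like scale after variance stabilization. A 2-fold difference in signal above background is about 1 unit in bright probes and less than 1 unit in dim ones. A fold change below is therefore an underestimate for a gene near background.

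TPA takes the place of diacylglycerol, the natural activator of protein kinase C, and keeps the kinase active for longer than the natural signal does. In keratinocytes the kinase acts through the ERK pathway, the transcription factor AP-1 and NF-kB. TPA is the classic tumor promoter of mouse skin, where it causes inflammation and thickening of the epidermis and drives keratinocytes toward terminal differentiation, in which proteins cross-linked beneath the membrane form the cornified envelope.

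With TPA, 46 genes rose and 28 fell in Ts cells in the paired limma test at an adjusted p below 0.05 (Benjamini-Hochberg), together 1.4% of the 5293 genes tested (0.869% higher and 0.529% lower). The rises were led by secreted proteases, cornified envelope proteins of the Sprr2 and Lce3 groups, neutrophil-attracting chemokines and Il1a. The falls were led by Aqp3, Eppk1 and Thbd. The rises were the larger changes. Over the 44 rises and 26 falls whose brightest probe was called, the median was 1.70 and -1.23 on the log2 scale. Of all rises 16 reached 4-fold, and of all falls 1 did (Aqp3). All 4 Ts-NT arrays detected 33 of the 46 rises, and all 4 Ts-TPA arrays detected 15 of the 28 falls. The changes of the others are underestimates near background, which limits the comparison of sizes. The brightest probe moved the same way in all 4 cultures for 71 of the 74 genes, the exceptions being Gjb2, Sgpl1 and Pfn2. In 45 of the 74 the Ts-TPA arrays did not overlap the Ts-NT arrays, while of all genes tested 1.91% had every Ts-TPA array above and 3.21% every Ts-TPA array below the Ts-NT arrays. At an unadjusted p below 0.05, 267 genes were higher and 568 were lower by at least 1 probe (4.5% and 9.75% of genes by their brightest probe), and the median change of all 5293 genes was -0.11. The test rested on 4 pairs: without culture 2, 3 or 4 the number of called genes dropped to 28, 23 and 28, and without culture 1 it was 104. Without the pairing 24 genes were called, 21 higher and 3 lower, and Aqp3 (adjusted p = 0.0821), Il1a (0.0951), Cxcl1 (0.0817), Cxcl5 (0.323), Ppbp (0.168), Pdpn (0.127), S100a7a (0.167) and Lce1m (0.168) were among those lost.

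**Figure D1:**
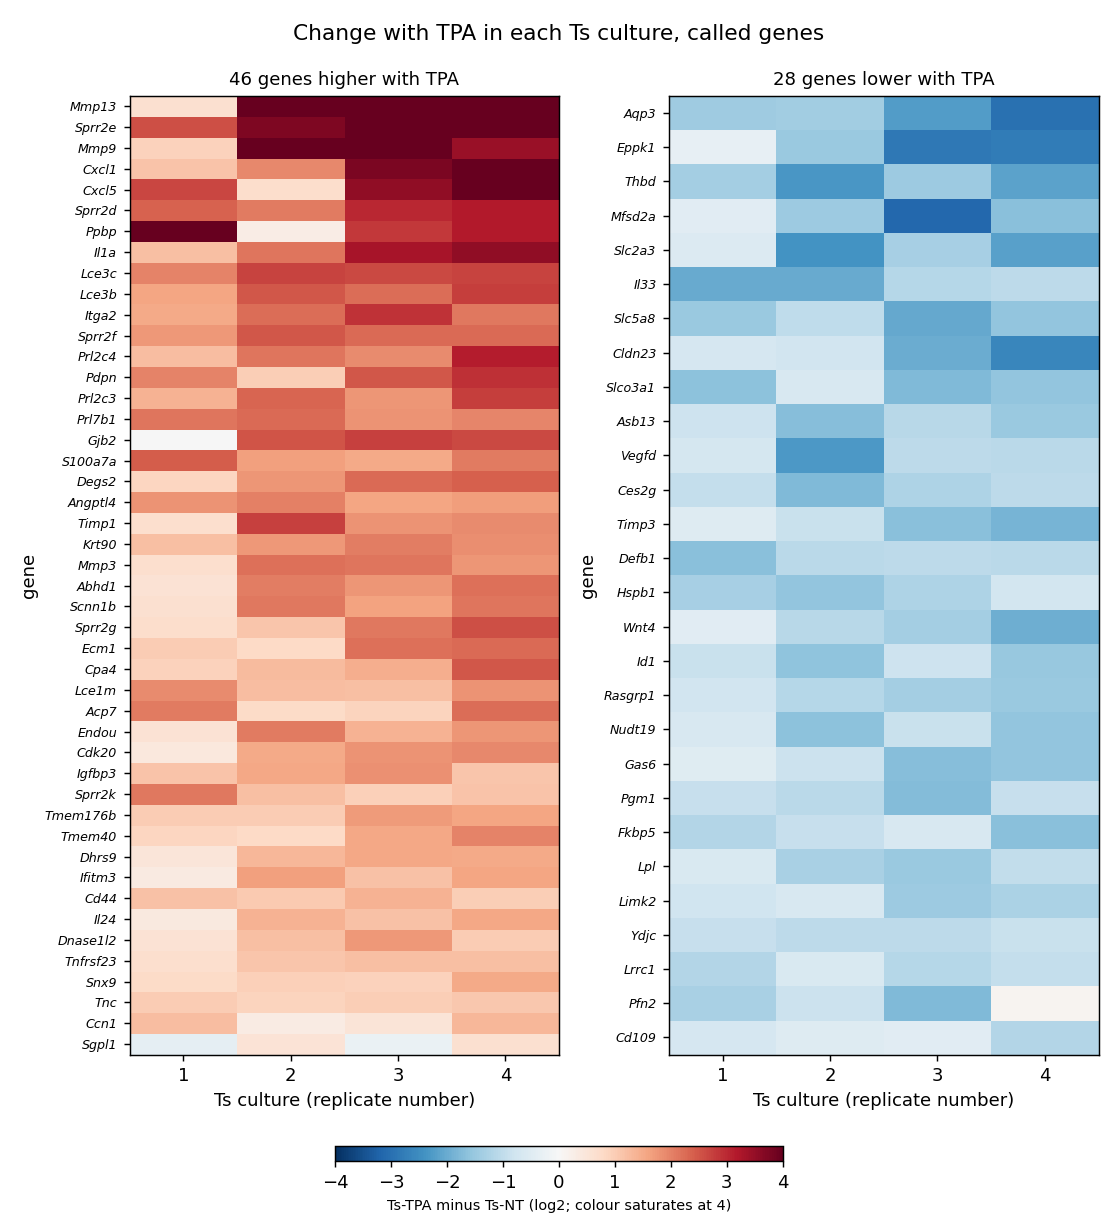
Change with TPA in each Ts culture for the 46 genes called higher (left) and the 28 called lower (right), as Ts-TPA minus Ts-NT on the log2 scale from the brightest probe of each gene. Rows run from the largest to the smallest change, and culture 1 is the palest column, with a median rise of 1.08 against 1.63, 1.79 and 2.10 in cultures 2, 3 and 4.

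The 8 arrays differed in brightness. The background signal, taken as the median raw intensity of probes with a high detection p, was 198.8 to 238.9 on the Ts-TPA arrays and 174.9 to 203.3 on the Ts-NT arrays, and 6371 to 7928 probes were detected on Ts-TPA arrays against 6746 to 7822 on Ts-NT arrays. The genes that define keratinocytes were detected throughout: all 8 of the markers used, among them Krt14 and Trp63, were kept and none was called, with a summed signal of 82370 to 107600 in Ts-TPA and 99500 to 113400 in Ts-NT. Markers of melanocytes were also present, with 10 of 12 genes kept and a summed signal of 14240 to 18120 in Ts-TPA and 13210 to 19500 in Ts-NT. Of 26 fibroblast markers 10 were kept (2275 to 2825 in Ts-TPA and 2076 to 3285 in Ts-NT). Of 21 immune cell markers 2 were kept, 16 were undetected on all 8 arrays, and the list summed to 751.1 to 913 in Ts-TPA and 780.2 to 901.7 in Ts-NT. No marker of these 4 cell types was called, nor were the 2 kept endothelial, 3 kept Merkel and simple epithelial and 2 kept hair follicle markers (list medians 0.41, 0.30 and -0.78). Of 13 adipocyte and muscle markers 1 was kept, Lpl, and it was called lower (-1.10), with a summed signal of the list of 536.8 to 649 in Ts-TPA and 734.4 to 955.4 in Ts-NT. Fewer cells of a type and less RNA per cell cannot be told apart in such cultures.

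Several of the genes that rose carry an AP-1 match in their promoter, and some of these promoters are shown. That of Cxcl1, which has no AP-1 match, is shown for its NF-kB matches. The RefSeq promoters (GRCm38.p6, 250 bases before to 50 bases after the start) were searched for TGANTCA. It is a looser form of the AP-1 or TPA response element, TGACTCA or TGAGTCA, and reads the same on both strands. Of the 46 genes that rose 36 matched a promoter, and 14 of the 36 (38.9%) held the element. Of the 28 that fell 18 matched, and 1 (5.56%) held it. Among all genes tested 4338 matched and 6.57% held it, and over all RefSeq genes that have such a promoter 8.97% did. The 14 include Sprr2d, Sprr2e, Sprr2f and Sprr2k, which are near copies of one another and do not count as independent genes. The 4 promoters below belong to Mmp13 (chr9:7272264-7272563, plus strand), Sprr2e (chr3:92351893-92352192, plus strand), Il1a (chr2:129309923-129310222, minus strand) and Cxcl1 (chr5:90890995-90891294, plus strand). Capitals mark TGANTCA in the first 3, and in Cxcl1 they mark the 2 matches to a form of the NF-kB site (3 Gs, any 2 letters, 3 Ts and 2 Cs, searched on both strands).
Mmp13: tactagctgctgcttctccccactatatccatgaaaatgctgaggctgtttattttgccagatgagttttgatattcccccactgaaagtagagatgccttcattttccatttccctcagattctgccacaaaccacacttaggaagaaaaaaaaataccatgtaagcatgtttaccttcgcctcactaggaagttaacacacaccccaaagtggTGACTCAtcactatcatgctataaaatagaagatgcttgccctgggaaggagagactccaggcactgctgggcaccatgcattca
Sprr2e: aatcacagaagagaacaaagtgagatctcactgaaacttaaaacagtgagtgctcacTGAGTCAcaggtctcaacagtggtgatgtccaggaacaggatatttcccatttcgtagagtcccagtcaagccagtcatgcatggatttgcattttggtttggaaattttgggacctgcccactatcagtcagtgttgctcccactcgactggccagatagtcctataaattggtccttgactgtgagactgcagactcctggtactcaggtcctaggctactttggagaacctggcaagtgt
Il1a: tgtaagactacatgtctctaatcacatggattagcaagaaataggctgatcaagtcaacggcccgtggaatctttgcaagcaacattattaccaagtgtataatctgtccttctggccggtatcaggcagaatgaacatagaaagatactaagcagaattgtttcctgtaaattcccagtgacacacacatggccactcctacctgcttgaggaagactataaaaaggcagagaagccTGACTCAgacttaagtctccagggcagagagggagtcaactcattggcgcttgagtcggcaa
Cxcl1: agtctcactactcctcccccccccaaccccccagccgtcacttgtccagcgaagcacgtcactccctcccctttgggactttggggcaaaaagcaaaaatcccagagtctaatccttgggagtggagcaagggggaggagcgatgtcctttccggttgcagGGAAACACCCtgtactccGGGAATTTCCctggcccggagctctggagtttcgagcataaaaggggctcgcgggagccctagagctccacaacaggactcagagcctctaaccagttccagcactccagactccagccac
The element began 35 bases before the start in Mmp13, 12 in Il1a and 193 in Sprr2e. The NF-kB form was in 2 of the 36 matched genes that rose (5.56%), Cxcl1 and Tmem176b. It was in 1 of the 18 matched genes that fell (5.56%), and in 2.03% of the matched genes among all tested. A match is a string of letters in the reference, and binding was not measured.

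All 15 AP-1 matches in the 14 genes that rose are printed with 10 bases on either side, so that their surroundings can be compared. Capitals again mark the element.
Cpa4: aaatactgctTGACTCAgtcagtatgt
Dhrs9: gcaataggtgTGACTCActgagagaag
Ecm1: cagcagggacTGAGTCAtggcaggaaa
Ifitm3: gaagttccccTGATTCAcaatccttcc
Il1a: cagagaagccTGACTCAgacttaagtc
Mmp13: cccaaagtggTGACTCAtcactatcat
Mmp3: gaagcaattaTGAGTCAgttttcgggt
Ppbp: tgcatctgtaTGAATCAgagccagaga
Prl2c3: gaacatgagaTGAATCAcatacataga
Sprr2d: gagtgctcacTGAGTCAcaggtctcaa
Sprr2e: gagtgctcacTGAGTCAcaggtctcaa
Sprr2f: aactgaatatTGAGTCAcagtgctcaa
Sprr2k, distal: gaatgtcctcTGAGTCActgtacttga
Sprr2k, proximal: tcactgtactTGACTCAgtgactatgt
Tmem40: gctggagactTGACTCAgccttagagc
The matches in Cpa4, Dhrs9, Ecm1, Il1a, Mmp13 and Mmp3 began within 70 bases of the start, the nearest at 10 bases in Cpa4. The Sprr2 genes had theirs farther out, at 193 bases in Sprr2d and Sprr2e and 197 in Sprr2f, and the windows of Sprr2d and Sprr2e are the same letter for letter. Of the 15 elements, 12 read TGACTCA or TGAGTCA.

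Small proline-rich (Sprr) proteins are building blocks of the cornified envelope. Of 13 Sprr genes on the array 9 were kept, and 5 of these 9 rose, all of the Sprr2 group, against 0.869% of all genes tested. The median change of all 9 was 1.35, and it lay between 1.11 and 1.51 in each of the 4 cultures. Sprr2e had signals of 10.12, 11.17, 10.58 and 10.55 in Ts-TPA and 7.54, 7.46, 6.19 and 6.28 in Ts-NT. The groups were separate by more than 2 units, with a change of 3.74 (SE 0.29, 13.4-fold, adjusted p = 0.000429). Sprr2d had 11.05, 11.9, 11.27 and 11.25 in Ts-TPA and 8.71, 9.82, 8.27 and 8.09 in Ts-NT, a change of 2.65 (SE 0.23, adjusted p = 0.000536). Every treated array was again above every untreated one. Sprr2f (2.19, adjusted p = 0.000812), Sprr2g (1.62, adjusted p = 0.0259) and Sprr2k (1.35, adjusted p = 0.0199) followed. The other 4 kept members, named after their values were seen, were not called: Sprr4 changed by 0.96 (adjusted p = 0.0607), Sprr1a by 0.61, Sprr1b by 0.12 and Sprr2a1 by -0.13. The calls of Sprr2d, Sprr2e and Sprr2f held without any 1 culture, while those of Sprr2g and Sprr2k were lost without culture 2, 3 or 4 (adjusted p = 0.0575 to 0.0727 for Sprr2k). The Sprr2 genes are near copies of one another, and cross-hybridization between their probes was not tested.

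Late cornified envelope (Lce) proteins are added to the envelope in the outermost living layers. Of 9 kept members 3 rose and none fell, against 0.869% higher and 0.529% lower of all genes tested. They were both kept Lce3 genes and Lce1m. Lce3c had 10.17, 11.3, 11.29 and 11 in Ts-TPA and 8.19, 8.61, 8.65 and 8.28 in Ts-NT, so that every treated array was above every untreated one (change 2.51, SE 0.21, adjusted p = 0.000523). Lce3b (2.26, adjusted p = 0.00116), whose 3 kept probes all rose, and Lce1m (1.53, adjusted p = 0.0065) also rose. All 3 calls held without any 1 culture. The remaining Lce genes lay between -0.64 and 1.04 and were not called, and the list median was 0.11. S100a7a, a member of the S100 alarmin family, rose by 1.92 (adjusted p = 0.00241), and Ecm1, a secreted protein of the skin matrix named after its value was seen, rose by 1.57 (adjusted p = 0.0224, its call being lost without culture 3 or 4). Genes of chromosome 3, where the Sprr, Lce and S100 genes neighbour one another, made up 11 of the 46 rises (23.9%), against 1 of the 28 falls (3.57%) and 5.37% of all genes tested. Other envelope precursors did not pass the test: 5 were kept, none was called and their changes ran from -0.05 to 0.19. Of 12 spinous differentiation markers none was called (median -0.13), and of 14 basal keratinocyte genes 1 rose, Cd44, the hyaluronan receptor (1.14, adjusted p = 0.0195), which had 6 kept probes with changes of 0.41 to 1.20 and 1 of them called. It lost its call without culture 2, 3 or 4 (adjusted p = 0.0691, 0.128 and 0.077).

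**Figure D2:**
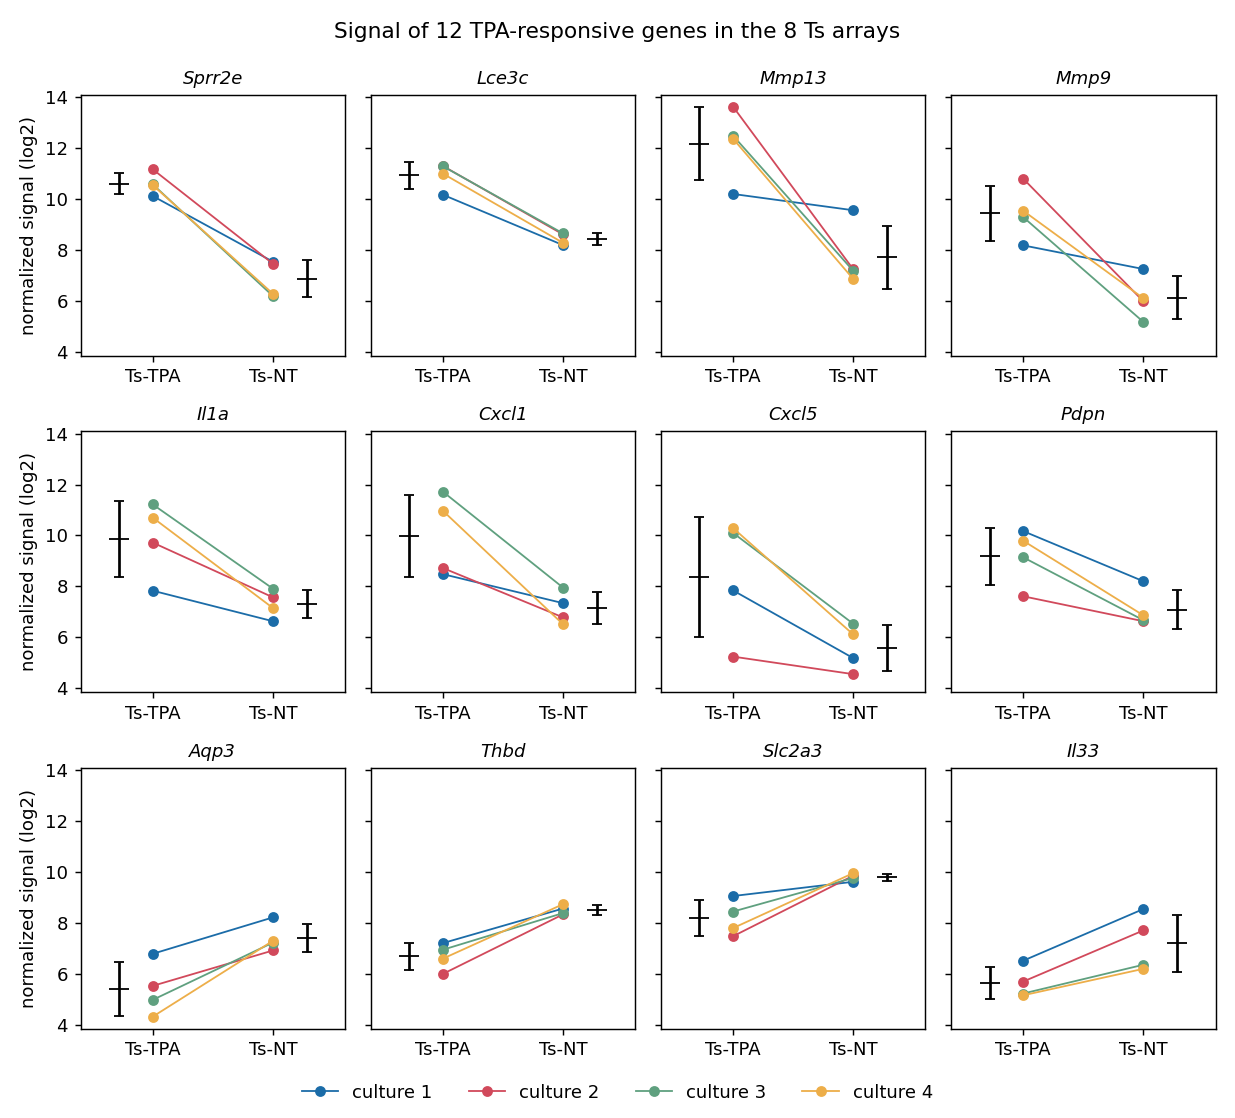
Normalized signal (log2 scale) of 12 genes on the 4 Ts-TPA arrays (left of each panel) and the 4 Ts-NT arrays (right), with a line joining the arrays of a culture, and the mean and SD of each group beside the points (n = 4). The Ts-TPA points of Sprr2e and Lce3c sit close together and well above Ts-NT, while culture 1 is nearly flat for Mmp13 (10.2 in Ts-TPA and 9.56 in Ts-NT).

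Matrix metalloproteinases cut collagens and other matrix proteins. Of 19 kept proteases of the list 3 rose and none fell, against 0.869% and 0.529% of all genes tested, and the list median was 0.43. Mmp13, collagenase 3, showed the largest rise of all genes. Its signals were 10.2, 13.63, 12.49 and 12.37 in Ts-TPA and 9.56, 7.24, 7.18 and 6.86 in Ts-NT (change 4.46, SE 0.71, 22-fold, adjusted p = 0.0138). Untreated culture 1 already stood far above the other untreated cultures, and the change there was 0.64, against 6.39, 5.31 and 5.51 in cultures 2, 3 and 4. Without culture 1 the change was 5.74 (adjusted p = 9.24e-06), and without culture 2, 3 or 4 the adjusted p was 0.0691, 0.0618 and 0.06. A second, dimmer probe of Mmp13 rose by 1.36. Mmp9, gelatinase B, had 8.18, 10.8, 9.29 and 9.54 in Ts-TPA and 7.25, 5.98, 5.17 and 6.1 in Ts-NT (change 3.33, SE 0.48, 10-fold, adjusted p = 0.00817). It was detected on all 4 treated arrays and on 1 untreated array, culture 1 was again the flattest, and its call held without any 1 culture. The treated arrays thus brought Mmp9 past the detection filter, and the count of 3 among 19 depends in part on that filter. Mmp3, stromelysin 1, rose by 1.69 (adjusted p = 0.0138) on the brightest of its 3 probes, all of which were called. That probe lost its call without culture 2, 3 or 4 (adjusted p = 0.0691, 0.0718 and 0.06). Mmp10, named after its values were seen, had 6.34, 9.76, 7.15 and 7.14 in Ts-TPA and 6.84, 5.13, 5.68 and 5.28 in Ts-NT and was not called (change 1.87, SE 0.59, adjusted p = 0.186).

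The inhibitors of these enzymes moved apart. Timp1, a secreted inhibitor, had 6.73, 8.15, 8.2 and 7.81 in Ts-TPA and 6.07, 5.41, 6.41 and 5.94 in Ts-NT, and rose by 1.76 (SE 0.29, adjusted p = 0.0168). Timp3, which is held in the matrix, had 11.45, 12.03, 10.73 and 10.28 in Ts-TPA and 11.98, 12.93, 12.39 and 12.13 in Ts-NT, and fell by 1.23 (SE 0.25, adjusted p = 0.045). Timp2, the other kept member of the family and named after its value was seen, changed by 0.42 and was not called. Timp1 and Timp3 each had 2 kept probes, 1 of them called, and the other probe changed by 0.9 for Timp1 and -0.76 for Timp3. The calls of Timp1 and Timp3 were lost without culture 2, 3 or 4 (adjusted p = 0.0691 to 0.077 for Timp1 and 0.0975 to 0.236 for Timp3). Among other genes of adhesion and matrix, Itga2, the collagen-binding integrin subunit, rose without overlap of the groups (8.33 ± 0.37 in Ts-TPA and 6.14 ± 0.35 in Ts-NT, SD, n = 4, change 2.19, adjusted p = 0.00196). Pdpn, the membrane glycoprotein podoplanin, had 10.17, 7.61, 9.14 and 9.79 in Ts-TPA and 8.2, 6.63, 6.67 and 6.86 in Ts-NT (change 2.09, SE 0.29, adjusted p = 0.00634). Its groups overlapped, yet each culture rose by 0.98 or more. Tnc, the matrix protein tenascin C, rose by 1 (SE 0.19, adjusted p = 0.0328) and lost its call without any 1 of the cultures (adjusted p = 0.0668 to 0.176).

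Cxcl1, Cxcl5 and Ppbp are chemokines that draw neutrophils, and they neighbour one another on chromosome 5. Of 23 chemokines on the array 7 were kept, and 13 were undetected on all 8 Ts arrays. Of the 7 kept, these 3 rose and none fell, against 0.869% higher and 0.529% lower of all genes tested. Cxcl1 had 8.48, 8.72, 11.72 and 10.97 in Ts-TPA and 7.34, 6.78, 7.95 and 6.51 in Ts-NT (change 2.83, SE 0.45, adjusted p = 0.0138), so that cultures 3 and 4 gave the high values. Cxcl5 had 7.84, 5.24, 10.1 and 10.29 in Ts-TPA and 5.18, 4.55, 6.53 and 6.11 in Ts-NT (change 2.78, SE 0.44, adjusted p = 0.0138). Ppbp had 8.44, 6.07, 9.13 and 9.72 in Ts-TPA and 4.41, 5.78, 6.3 and 6.55 in Ts-NT (change 2.58, SE 0.46, adjusted p = 0.0238). Culture 2 barely moved for Cxcl5 and Ppbp, by 0.69 and 0.30. Cxcl5 was detected on 3 Ts-TPA arrays and 1 Ts-NT array, and Ppbp on 3 and 2. The treated arrays thus helped both past the detection filter, and the count of 3 among 7 depends in part on that filter. The calls depended on single cultures: the adjusted p was 0.0718 without culture 3 for Cxcl1 and Cxcl5, 0.0546 without culture 4 for Cxcl5, and 0.0563, 0.093 and 0.114 without culture 1, 3 or 4 for Ppbp. The call of Cxcl5 was also lost with neqc or quantile normalization and with the authors' values. The 4 other kept chemokines (Ccl27a, Cxcl12, Cxcl14 and Cxcl16) changed by 0.03, 0.22, -0.30 and 0.09 and were not called.

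Il1a, a cytokine that keratinocytes store and release on injury, had 7.83, 9.72, 11.22 and 10.7 in Ts-TPA and 6.63, 7.57, 7.91 and 7.15 in Ts-NT (change 2.55, SE 0.34, 5.87-fold, adjusted p = 0.00554), with its highest treated values again in cultures 3 and 4. Its call held without any 1 culture. Il33, a nuclear alarmin of the same family, went the other way, with 6.51, 5.69, 5.22 and 5.15 in Ts-TPA and 8.54, 7.7, 6.35 and 6.19 in Ts-NT (change -1.55, SE 0.24, adjusted p = 0.0111, and 0.0642 without culture 2). It was detected on all 4 untreated arrays and on 1 treated array, and its call was lost with quantile normalization and with the authors' values. Il24, of the IL-10 family, rose by 1.13 (adjusted p = 0.0474, and 0.147, 0.183 and 0.236 without culture 2, 3 or 4). Of the 11 kept cytokines and receptors 2 thus rose and 1 fell, against 0.869% higher and 0.529% lower of all genes tested, with a list median of 0.26. The untreated arrays brought Il33 past the detection filter, so the count of falls depends on that filter.

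Prl2c4 and Prl2c3, of a family of secreted hormones best known in mice from the placenta, were among the largest rises. Prl2c4 had 10.17, 10.25, 9.74 and 10.56 in Ts-TPA and 8.93, 8.1, 7.86 and 7.4 in Ts-NT (change 2.11, SE 0.28, adjusted p = 0.00554). Prl2c3 had 10.89, 11.27, 10.6 and 11.18 in Ts-TPA and 9.48, 8.94, 8.84 and 8.43 in Ts-NT (change 2.06, SE 0.25, adjusted p = 0.00294). Neither pair of groups overlapped, and both calls held without any 1 culture. Prl7b1, named after its value was seen, rose by 2.05 (adjusted p = 0.000824). Prl2c3 and Prl7b1 both lie on chromosome 13. Cross-hybridization between the 2 Prl2c genes was not tested.

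The largest fall was in Aqp3, the water and glycerol channel of basal keratinocytes. Its signals were 6.78, 5.52, 4.97 and 4.31 in Ts-TPA and 8.21, 6.91, 7.22 and 7.29 in Ts-NT (change -2.01, SE 0.27, 4.03-fold, adjusted p = 0.00581). It was detected on 1 treated and all 4 untreated arrays, and its call held without any 1 culture. Eppk1, the plakin epiplakin that binds keratin filaments, had 9.66, 8.1, 6.31 and 6.7 in Ts-TPA and 10, 9.6, 9.17 and 9.51 in Ts-NT (change -1.88, SE 0.37, adjusted p = 0.0368). The untreated arrays lay within 1 unit of one another, while the change was -2.87 and -2.81 in cultures 3 and 4 and -0.34 in culture 1. Without culture 2, 3 or 4 the adjusted p was 0.0983, 0.168 and 0.189. Thbd, the thrombin receptor thrombomodulin, had 7.2, 5.99, 6.94 and 6.59 in Ts-TPA and 8.56, 8.33, 8.38 and 8.73 in Ts-NT (change -1.82, SE 0.23, 3.53-fold, adjusted p = 0.00356). Its groups did not overlap, and the call held without any 1 culture. Of the 28 genes that fell, 15 were detected on all 4 Ts-TPA arrays and 27 on all 4 Ts-NT arrays, and the raw background was higher on the Ts-TPA arrays. The part of that background in the falls was not tested.

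Most of the called transport genes named here fell. Of 22 kept genes for transport of water, ions, glucose and amino acids 2 fell (Aqp3 and Slc2a3) and none was called higher, against 0.529% lower and 0.869% higher of all genes tested. The untreated arrays brought Aqp3 past the detection filter, so the count of 2 among 22 depends in part on that filter. Slc2a3, the glucose transporter GLUT3, had 9.05, 7.47, 8.44 and 7.79 in Ts-TPA and 9.61, 9.85, 9.76 and 9.95 in Ts-NT. The untreated arrays lay close together and all above the treated ones (change -1.61, SE 0.29, adjusted p = 0.0242). Outside that list, Scnn1b, a subunit of the epithelial sodium channel named after its value was seen, rose without overlap (change 1.62, SE 0.26, adjusted p = 0.0156, its call being lost without culture 2, 3 or 4). Also outside it, Mfsd2a, a carrier of lysolipids (-1.67, adjusted p = 0.0486), Slc5a8, which takes up lactate and short-chain fatty acids with sodium (-1.53, adjusted p = 0.00753), and Slco3a1, an organic anion carrier (-1.42, adjusted p = 0.0167), fell. Slc2a3 and these 3 genes lost their calls in 1 to 3 of the 4 fits that leave out a culture (largest adjusted p = 0.138 for Slc2a3, 0.173 for Mfsd2a, 0.0575 for Slc5a8 and 0.0957 for Slco3a1). Cldn23, a claudin of tight junctions, fell by 1.5 (adjusted p = 0.0493, and 0.0691, 0.215 and 0.229 without culture 2, 3 or 4), whereas Gjb2, the gap junction protein connexin 26, rose by 1.96 (adjusted p = 0.0445). Gjb2 had 8.95, 10.43, 8.85 and 8.99 in Ts-TPA and 8.98, 7.93, 6.14 and 6.34 in Ts-NT, so that culture 1 did not move, and without it the change was 2.62 (adjusted p = 0.000518). Without culture 2, 3 or 4 its adjusted p was 0.155, 0.183 and 0.208.

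Among signaling genes, Rasgrp1, an exchange factor that turns on Ras and itself binds phorbol esters, fell by 1.19 (6.04 ± 0.46 in Ts-TPA and 7.22 ± 0.15 in Ts-NT, SD, n = 4, adjusted p = 0.0206). It was the only called gene of 11 kept protein kinase C and phorbol ester receptor genes, which had a median of 0.12, and its adjusted p was 0.0789, 0.126 and 0.136 without culture 2, 3 or 4. Its call was also lost with quantile normalization and with the authors' values. Rasgrp1 was detected on 1 treated and all 4 untreated arrays, so its place among the 11 kept genes depends on the detection filter. Of 19 kept AP-1 subunits and immediate early factors 1 rose, Ccn1, a matricellular protein, by 1 of its 3 probes. The brightest probe of Ccn1 changed by 0.86 (adjusted p = 0.127). The list median was 0.09, and the AP-1 subunits Fos, Fosl1, Jun and Junb, named after their values were seen, changed by 0.05, 0.26, -0.31 and -0.15. None of 12 NF-kB genes, 14 ERK feedback genes or 4 kept genes of the EGF receptor family was called. Id1, an inhibitor of helix-loop-helix factors, fell by 1.21 (adjusted p = 0.0242), Wnt4, a secreted Wnt ligand, by 1.22 (adjusted p = 0.0474), Hspb1, a small heat shock protein, by 1.22 (adjusted p = 0.0204) and Defb1, a beta-defensin, by 1.22 (adjusted p = 0.0175). Id1, Wnt4 and Defb1 lost their calls without culture 2, 3 or 4, and Hspb1 without culture 2 or 3 (largest adjusted p = 0.15 for Id1, 0.236 for Wnt4, 0.0989 for Hspb1 and 0.0746 for Defb1). Lpl, lipoprotein lipase, fell by 1.10 (adjusted p = 0.0368, and 0.12, 0.209 and 0.145 without culture 2, 3 or 4).

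None of the kept genes of the mitosis and S phase lists passed the test, and the cultures differed in both lists. Of 19 kept genes of mitosis and G2/M none was called, and all 19 fitted changes lay below the median of all genes (list median -0.37). By culture the median was 0.19, -1.40, -0.36 and -0.40 in cultures 1, 2, 3 and 4, and 19 of 19 members were lower with TPA in culture 2 against 6 of 19 in culture 1. Cenpa, the centromeric histone, had 10.77, 8.72, 8.81 and 9.6 in Ts-TPA and 11.19, 10.13, 9.91 and 10.4 in Ts-NT (change -0.93, SE 0.22, adjusted p = 0.0757). Cdc20, an activator of the anaphase ligase, had 8.55, 6.37, 6.8 and 7.01 in Ts-TPA and 8.79, 8.29, 7.07 and 7.81 in Ts-NT (change -0.81, SE 0.28, adjusted p = 0.233). Culture 2 gave the lowest treated value of both genes and culture 1 the highest. The 30 kept S phase genes had medians of 0.11, -0.94, -0.02 and 0.13, so that culture 2 alone stood well below 0, and none was called. Outside both lists, Cdk20, a kinase related to the cell cycle kinases and named after its value was seen, had 8.61, 9.84, 9.83 and 9.56 in Ts-TPA and 8.2, 8.33, 8.04 and 7.64 in Ts-NT and rose by 1.40 (SE 0.26, adjusted p = 0.0275). Its groups did not overlap, and its call was lost without culture 2, 3 or 4 and with neqc. Genes of cholesterol and fatty acid synthesis (29 kept, median -0.28), glycolysis (14 kept, median -0.24) and cytosolic ribosomal proteins (54 kept, median -0.16) held no called gene.

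**Figure D3:**
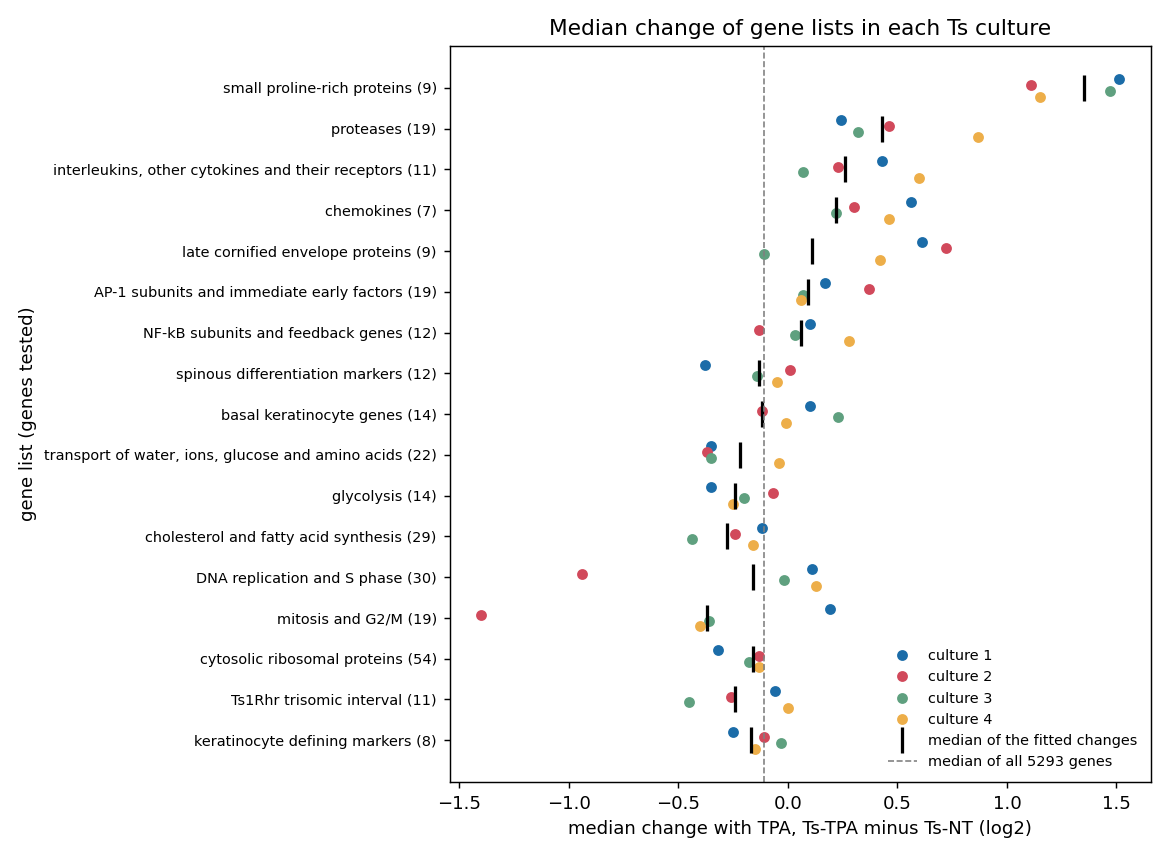
Median change with TPA (log2 scale) of 17 gene lists in each of the 4 Ts cultures (points), with the median of the fitted changes (vertical marks) and that of all 5293 genes (dashed line at -0.11). The Sprr list lies between 1.11 and 1.51 in every culture, and culture 2 stands apart for mitosis and G2/M (-1.40) and for S phase genes (-0.94).

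Of the trisomic interval itself, 30 genes were on the array and 11 were kept. None was called, and their changes with TPA ran from -0.60 to 0.09 with a median of -0.24. Pigp, a subunit of the enzyme that starts GPI anchors, had 9.39, 9.6, 9.64 and 9.03 in Ts-TPA and 9.5, 9.59, 10.09 and 9.45 in Ts-NT (change -0.24, SE 0.20, adjusted p = 0.635). Its groups overlapped. The transcription factor gene Ets2 changed by -0.19 (SE 0.23, adjusted p = 0.763), and Chaf1b, a histone chaperone subunit, by -0.41 (SE 0.24, adjusted p = 0.477). Bace2, an aspartic protease, changed by 0.09, Ttc3, a ubiquitin ligase, by -0.02, and Cbr3, a carbonyl reductase, by -0.42. Of disomic genes taken up in the study, Rab32, a small GTPase of vesicle traffic, had 10.14, 10.34, 10.74 and 10.61 in Ts-TPA and 9.25, 9.47, 10.15 and 10.18 in Ts-NT. It was higher in all 4 cultures but was not called (change 0.69, SE 0.20, adjusted p = 0.154). Elk3, Dyrk1a and Kcnj15 did not pass the detection filter.

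The WT cells were then set beside the Ts cells on the same 7069 probes, with the same paired test on the 4 WT-TPA and 4 WT-NT arrays. In WT 180 genes were called (3.4% of those tested), 109 higher (2.06%) and 71 lower (1.34%), and the median SE of a change was 0.22 in Ts and 0.18 in WT. Of the 74 genes called in Ts 53 were also called in WT, 39 higher and 14 lower, all in the same direction. That is 71.6% of the Ts calls and 29.4% of the WT calls. The other 21 changed in the same direction in WT as well, 16 of them at an unadjusted p below 0.05. Across all genes the changes of Ts and WT had a Pearson r of 0.72 and a Spearman rho of 0.58, as a description over 5293 genes, which are not independent. The WT count ranged from 20 to 318 when a WT culture was left out.

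**Figure D4:**
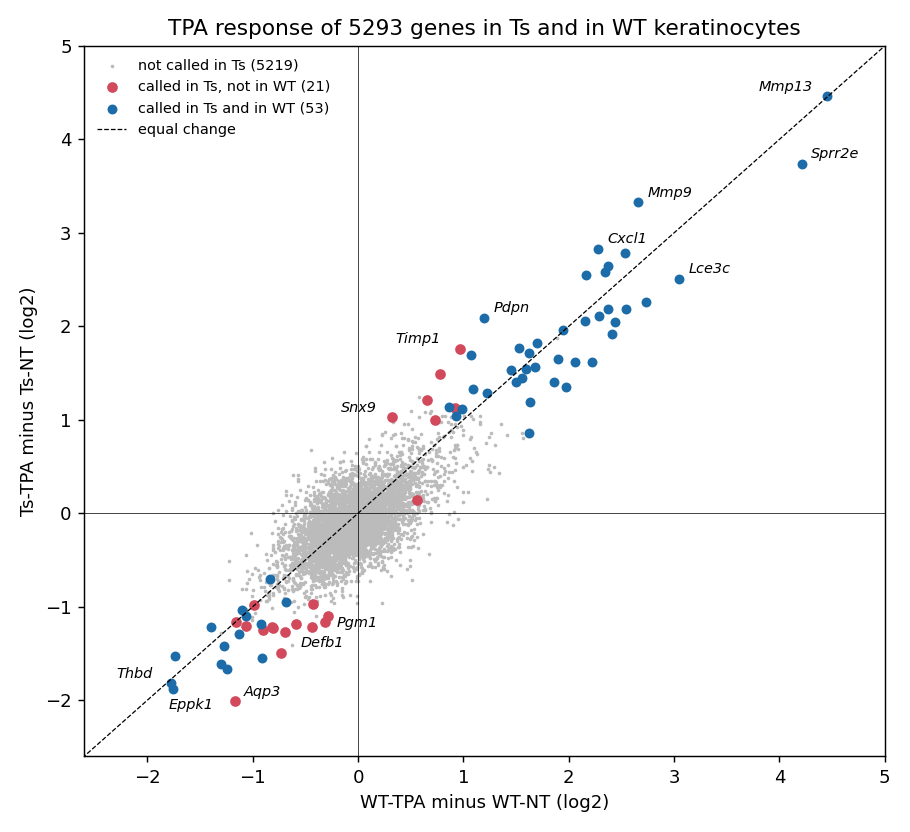
Change with TPA in Ts cells (vertical axis, Ts-TPA minus Ts-NT, log2 scale) against the change in WT cells (horizontal axis, WT-TPA minus WT-NT) for 5293 genes, with the 53 genes called in both genotypes, the 21 called in Ts and not in WT, and the genes not called in Ts in gray. Called genes lie in the upper right or lower left, and the dashed line marks equal change.

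The difference in response was tested directly, and no gene differed between Ts and WT after adjustment (0 of 5293 genes, 0%, smallest adjusted p = 1, interaction fit in limma over 16 arrays). At an unadjusted p below 0.05, 65 genes had a higher and 144 a lower change in Ts. Mmp13 rose by 4.46 in Ts and by 4.45 in WT, and Sprr2e by 3.74 in Ts and 4.21 in WT. Mmp9 rose by 3.33 in Ts and 2.66 in WT, a difference of 0.67 (SE 0.92). Of the genes called in Ts and not in WT, Aqp3 changed by -2.01 in Ts and -1.17 in WT (difference -0.84, SE 0.45), and Defb1, a defensin, by -1.22 in Ts and -0.44 in WT (difference -0.78, SE 0.29). Timp1 changed by 1.76 in Ts and 0.97 in WT (difference 0.79, SE 0.42). Pdpn was called in both and rose by 2.09 in Ts and 1.20 in WT (difference 0.89, SE 0.39). Ccn1 changed by 0.86 in Ts and 1.62 in WT on its brightest probe (difference -0.77, SE 0.28). Each of these 6 differences had an adjusted p = 1. The median SE of the difference was 0.29, against 0.22 for a change in Ts alone. For the Ts test, simulated data recovered only 41% of changes of 1 on the log2 scale. Differences between the genotypes of 2-fold could therefore also go undetected gene by gene with these arrays, and the absence of calls does not show equal responses.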

How the data were processed

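Total RNA of the keratinocytes was hybridized to 16 Illumina MouseRef-8 v2.0 arrays in 1 color. For each probe and array the authors deposited an intensity, not normalized, beside its detection p-value. The detection p-value compares a probe with negative control probes of its array. The authors also deposited log2 values normalized with vsn. Per the labels, limma was the tool named in the submitters' processing notes.

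The raw intensities of all 16 arrays were variance stabilized with a model rewritten after vsn (arsinh transform, robust fit on a share of 0.9 of the probes, 7 rounds, 10 strata), and its values correlated at 0.958 to 0.964 with the authors' log2 values. limma 3.58.1 in R 4.3.3 fitted treatment with the replicate number as a block, and p was adjusted over the 7069 kept probes. Genes with 1 or more probes below 0.05 were called, and the brightest kept probe supplies the values of each gene. In simulated data of 7069 probes this test recovered 41% of changes of 1 and 84% of changes of 2 on the log2 scale. Symbols came from the array's annotation, and 1719 of 25697 probes had none. The number of arrays limits the precision.

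The study's methods pair the arrays by the source of the cells. Same-numbered Ts arrays had correlations of 0.32, 0.20, 0.27 and 0.07 between their deviations from the group means, and for culture 4 another number was higher (0.10). Named genes are the 15 largest rises and 15 largest falls moving alike in all 4 cultures, up to 4 called members of each of 46 gene lists (or the 2 of lowest p), and 13 genes named in the study's results. Members, lists and tests were chosen with earlier results of these data known. Lists are described by counts and medians, with no test. Other normalizations, filters, fits without the block and fits without each culture were run as alternatives. Probe sequences and protein sequences were not used here.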

Additional observations from a re-analysis of the deposited data

Results flagged for a closer look

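In 12 groups of 4 arrays, among 212 tested over the named genes, 1 array stood far from the other 3 by Dixon's criterion for 4 values (its gap to the nearest array over the range of the group). For independent values with a normal distribution, such a gap arises in about 5% of groups. The groups here share the same arrays, and whether the 12 of 212 differ from that rate was not tested. Culture 1 was the array apart in 7 of the 12. Its Ts-TPA signal was 8.56 for Asb13 (nearest 7.6), 7.77 for Itga2 (nearest 8.51) and 10.62 for Lce3b (nearest 11.44). Its Ts-NT signal was 9.03 for Chaf1b (nearest 8.3), 12.48 for Klk8 (nearest 12.85), 9.56 for Mmp13 (nearest 7.24) and 8.2 for Pdpn (nearest 6.86). Culture 2 stood apart in Ts-TPA for Egfl7 (5.35, nearest 6.28) and Gjb2 (10.43, nearest 8.99). Culture 3 stood apart for Flt1 in Ts-TPA (5.29, nearest 6.41) and for Itga2 in Ts-NT (5.62, nearest 6.27). Culture 4 stood apart for Krt18 in Ts-NT (6.45, nearest 5.68).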

How the results depend on the processing

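Called genes depended most on the pairing and on single cultures. Without the replicate block 24 genes were called (21 higher, 3 lower), all among the 74, and 21 in WT with 9 shared between the genotypes. Leaving out 1 Ts culture gave 23 to 104 called genes (19 to 55 higher, 4 to 49 lower), and leaving out 1 WT culture gave 20 to 318 in WT. Of the 74 genes 19 were called in all 4 of these Ts fits. Centring each array on its median gave 71 higher genes, neqc normalization 12 lower (41 higher, so that 77.4% of calls were higher against 62.2%) and no detection filter 15 lower. With neqc the calls of Cxcl5, Sprr2g, Gjb2, Il24, Ccn1, Eppk1, Slc2a3, Timp3, Mfsd2a, Cldn23, Id1, Wnt4, Hspb1 and Lpl were lost among others, and with the authors' values those of Cxcl5, Gjb2, Ccn1, Il33, Rasgrp1, Slco3a1, Mfsd2a, Cldn23 and Id1. No gene differed between Ts and WT in the fit reported, with 65 higher and 144 lower at an unadjusted p below 0.05. Nor did any gene differ under the alternatives in which this difference was fitted, which were not all of them. The median of all genes ran from -0.14 to -0.02. Among named genes 7 values changed sign, all of genes that were not called: Bace2 ran from -0.09 to 0.32, Ets2 from -0.35 to 0.06 and Ttc3 from -0.06 to 0.06 over the fits without 1 culture, and Ttc3 was 0.04 with neqc, 0.03 with quantile normalization, 0.02 with the authors' values and 0.06 with centring. The causes were not tested. Genes below background have signals that limit any fold.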

Other observations

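Some probes crossed the detection threshold in every culture. Of 25697 probes, 13 were detected on all 4 Ts-TPA arrays and on no Ts-NT array, and 4 the other way round. Those detected with TPA only included Angptl4, a secreted inhibitor of lipoprotein lipase, which was at least 1.94-fold higher in Ts-TPA, and Acp7, which was at least 1.31-fold higher, the Ts-NT side being taken at the lowest signal above background. The call of Acp7 was lost with quantile normalization, with the authors' values, without the replicate block and without culture 1, 3 or 4. Adam8, a surface protease detected likewise, was not called (change 0.87, adjusted p = 0.0656 in limma).

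The promoters of the genes that rose also held the TATA box letters TATAAA more often than those of all genes tested, as a description with no test. The search covered both strands and the whole promoter, so a match need not sit where a TATA box does. The letters stood in 15 of 36 genes that rose (41.7%), in 5 of 18 that fell (27.8%) and in 9.57% of the 4338 genes tested with a promoter. The 15 include the near copies Sprr2d, Sprr2e, Sprr2f and Sprr2k, which do not count as independent genes.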
